A study of Homo sapiens with 12 samples.

Results

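The clustered protocadherins are the members of the alpha, beta and gamma protocadherin gene clusters, which lie one after the other on chromosome 5. Members were taken as the rows of the deposited gene table whose symbol is PCDHA, PCDHB, PCDHGA, PCDHGB, PCDHGC or PCDHAC followed by a number. This gave 54 genes of 58735 rows, with 16 in the alpha, 16 in the beta and 22 in the gamma cluster. All 54 lie on the plus strand of GRCh38 between chr5:140786136, the start of PCDHA1, and chr5:141512977, the end of PCDHGC3. PCDHA14 is annotated as a transcribed pseudogene and had 0 counts in every library, and the other 53 are protein coding and had at least 1 count. Of these, 32 reached a mean of at least 5 raw counts over the 12 libraries and were tested with 18415 genes in all. They were 3 alpha, 13 beta and 16 gamma members.

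SW872 is a human liposarcoma cell line, used here to carry the gene fusions that define epithelioid hemangioendothelioma. Cells stably expressed TAZ-CAMTA1 (TC) or YAP-TFE3 (YT), fusion proteins that reach DNA at least in part through TEAD transcription factors. Each line also carried a hairpin that was non-targeting (shNT) or directed to YEATS2 (shYEATS2) or ZZZ3 (shZZZ3), which both belong to ATAC, a complex that acetylates histones. The comparisons asked how depletion of each subunit altered the transcriptome of each fusion. The 6 groups were TC shNT, TC shYEATS2, TC shZZZ3, YT shNT, YT shYEATS2 and YT shZZZ3, with 2 libraries in each. All groups therefore carried a fusion and a hairpin, and no library of cells without a fusion was among them. The lines were drug-selected pools that expressed the fusion from a retroviral vector. The study describes the libraries of a group as biological duplicates, and its methods give separate transduction and selection for its sequencing replicates in general. The labels number the libraries without saying what a number marks, and p-values measure the spread between these libraries.

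Clustered protocadherins are cadherin-family cell-surface proteins that bind the same isoform on a neighbouring cell and are best known for giving neurons a surface identity. An alpha or gamma transcript joins a variable exon, with a promoter of its own, to constant exons shared by the cluster, whereas a beta gene is a single exon. In neurons, promoter choice depends on DNA methylation, on SMCHD1 and on CTCF and cohesin, which loop a chosen promoter to a distant enhancer.

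Libraries held between 17451893 and 29294805 counts, of which 2861 to 6268 fell in the 3 clusters. The alpha cluster rested on 25 to 83 counts per library, the beta cluster on 105 to 545 and the gamma cluster on 2552 to 5757. YEATS2 fell with its hairpin in both lines, from 112.5 and 122.9 to 45.4 and 35.1 CPM (counts relative to library size, scaled by TMM, a trimmed mean of ratios between libraries) in TC and from 114.5 and 117.4 to 33.9 and 38.5 CPM in YT (edgeR adjusted p of 0.0138 and 0.000104). ZZZ3 fell in YT, from 71.2 and 49.1 to 12.6 and 29.6 CPM (edgeR adjusted p of 0.0453). In TC it went from 25.6 and 60.4 to 21.9 and 22.7 CPM, below both controls but short of the threshold (edgeR adjusted p = 0.450), and the label TC shZZZ3 is used below with that limit. Among marker lists, 9 mesenchymal genes summed to 5983 to 12845 CPM. The neuronal list summed to 13.9 to 35.6 CPM over 8 genes, with STMN2 at 0 in every library and RBFOX3 at no more than 0.103 CPM. Epithelial, endothelial and blood markers summed to 288 to 917, 42.8 to 269 and 0.954 to 4.69 CPM, and adipocyte markers to 123 to 344 CPM. The adipocyte markers LEP, at 0 throughout, and ADIPOQ, at no more than 0.0516 CPM, were absent or nearly so.

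PCDHGC3, a C-type gamma gene that is expressed widely outside the nervous system, dominated the locus. Its level ranged from 89.5 CPM in TC shNT replicate 2 to 173 CPM in YT shYEATS2 replicate 2, and it held 70.5% to 82.8% of the gamma counts of a library. Per kilobase of exon that no other gene shares, its mean over 12 libraries was 40.4 CPM. PCDHGA7 followed at 4.60 CPM per kilobase, then PCDHGB2 at 1.78, PCDHGA2 at 1.48 and PCDHGB1 at 1.03. PCDHB5 was the highest beta gene at 0.846 CPM per kilobase and PCDHA1 the highest alpha gene at 0.303. How reads in the shared constant exons were assigned is not given in the sources used here, so the order within and between clusters depends on the length used. Over the full exon length PCDHGC3 came to 24.2 and PCDHA1 to 0.148 CPM per kilobase.

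The 22 members below the filter had means of 0 to 4.25 counts. They were 13 alpha genes, the beta genes PCDHB1, PCDHB4 and PCDHB9, and the gamma genes PCDHGA8, PCDHGA9, PCDHGA11, PCDHGA12, PCDHGB6 and PCDHGB7. PCDHA10 reached at most 12 counts in a library, and no other untested member passed 9. The C-type alpha genes PCDHAC1 and PCDHAC2, last in their cluster, had at most 1 and 4 counts. Between 29 and 37 members had at least 4 counts in a library.

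Promoters are shown for the called member of smallest adjusted p in the beta and gamma clusters, PCDHB13 and PCDHGA7, and for the nearest tested member that was not called in the same contrast, PCDHB14 and PCDHGB4. The sequences are RefSeq promoters of GRCh38.p14, plus strand, from 250 bases before to 50 after the annotated start, and 47 of the 54 members had an entry. Capitals mark the string of 8 bases that the most promoters of that cluster share on the gene's strand, chosen from these promoters themselves. The windows are chr5:141213669-141213968 for PCDHB13, chr5:141223093-141223392 for PCDHB14, chr5:141382492-141382791 for PCDHGA7 and chr5:141387448-141387747 for PCDHGB4.
PCDHB13: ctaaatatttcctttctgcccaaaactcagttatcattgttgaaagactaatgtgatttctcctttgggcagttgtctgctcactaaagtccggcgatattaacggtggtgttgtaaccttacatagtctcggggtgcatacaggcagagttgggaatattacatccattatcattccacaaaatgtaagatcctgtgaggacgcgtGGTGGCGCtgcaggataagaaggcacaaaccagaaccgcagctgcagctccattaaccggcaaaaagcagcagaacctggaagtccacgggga
PCDHB14: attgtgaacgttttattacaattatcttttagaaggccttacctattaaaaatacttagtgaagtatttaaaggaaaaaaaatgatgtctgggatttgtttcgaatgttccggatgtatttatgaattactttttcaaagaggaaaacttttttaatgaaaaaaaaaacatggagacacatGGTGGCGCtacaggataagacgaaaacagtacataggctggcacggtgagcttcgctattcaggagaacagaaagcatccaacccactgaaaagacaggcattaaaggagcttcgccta
PCDHGA7: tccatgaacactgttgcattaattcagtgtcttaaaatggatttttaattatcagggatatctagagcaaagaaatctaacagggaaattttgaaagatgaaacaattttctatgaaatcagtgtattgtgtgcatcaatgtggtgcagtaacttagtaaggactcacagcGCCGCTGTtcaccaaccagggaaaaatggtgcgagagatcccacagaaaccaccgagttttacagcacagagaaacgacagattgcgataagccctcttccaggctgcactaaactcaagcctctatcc
PCDHGB4: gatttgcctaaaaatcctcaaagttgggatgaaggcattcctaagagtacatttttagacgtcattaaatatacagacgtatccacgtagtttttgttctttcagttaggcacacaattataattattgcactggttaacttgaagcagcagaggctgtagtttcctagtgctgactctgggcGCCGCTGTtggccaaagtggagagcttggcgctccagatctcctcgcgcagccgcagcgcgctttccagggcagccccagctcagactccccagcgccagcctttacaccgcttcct

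The beta string GGTGGCGC was found in 13 of 14 beta promoters, the exception being PCDHB1, and on either strand in 2.27% of 27305 promoters of the genome. No alpha or gamma promoter held it. The gamma string GCCGCTGT was found in 11 of 20 gamma promoters and in 1.60% of all promoters, and the alpha string ATGTCGCT in 9 of 13 and in 0.245%. Each starts 97 bases or fewer before the transcription start. The letters CGCT, which end the alpha string and lie within the gamma string, were found on either strand in 46 of 47 member promoters and in 69.4% of all. PCDHB13, which was called in 5 contrasts, and PCDHB14, which was called in 1, both hold the beta string, as PCDHGA7 and PCDHGB4 both hold the gamma string. GGAATG, the core letters of the TEAD motif, was present on either strand in 9 of 47 member promoters (19.1%) against 14.0% of all promoters, among them PCDHB13 and PCDHGB4. CACGTG, the E-box bound by TFE3, was present in 3 of 47, all of them alpha genes, against 7.43% of all. These matches describe letters in these windows and were not tested against the expression data.

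The beta cluster was lower in TC shZZZ3. Its members summed to 14.4 and 16.4 CPM in TC shNT and to 5.07 and 5.61 CPM in TC shZZZ3, a mean of 15.4 ± 1.42 against 5.34 ± 0.379 CPM (SD, n = 2 each) and a ratio of 0.347. The 4 adjacent genes PCDHB12, PCDHB13, PCDHB14 and PCDHB15 passed the test and all fell, whereas 1.53% of all genes tested passed in that contrast, 0.592% as lower and 0.934% as higher. In bulk RNA, fewer cells that express a member and less RNA per cell cannot be told apart. The mesenchymal sum was also lower there, at 5983 and 7457 CPM against 10642 and 12531 CPM. That sum followed FN1, which went from 7523 and 9999 to 2911 and 4261 CPM. Of the 9 mesenchymal genes 1 was called higher and 2 lower, with a median of 0.07 on the log2 scale. The neuronal sum was higher, at 35.6 and 34.1 CPM against 19.4 and 21.3 CPM. Of its 5 tested genes 2 were called higher and 0 lower, with a median of 0.18. Both TC shZZZ3 libraries also lay below both controls in the adipocyte and endothelial sums and above them in the epithelial sum. The part of these lists in the beta values was not tested. The other 9 tested beta genes had negative log2 fold changes of -0.19 to -1.63 that did not pass. The beta median was -0.89 on the log2 scale, beside -0.01 over all genes tested, and 10 of 13 beta genes lay below both controls. Over the 3 clusters 17 of 32 members lay below both controls and 5 above both, where 16.6% and 19.9% of all genes did so.

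**Figure D1:**
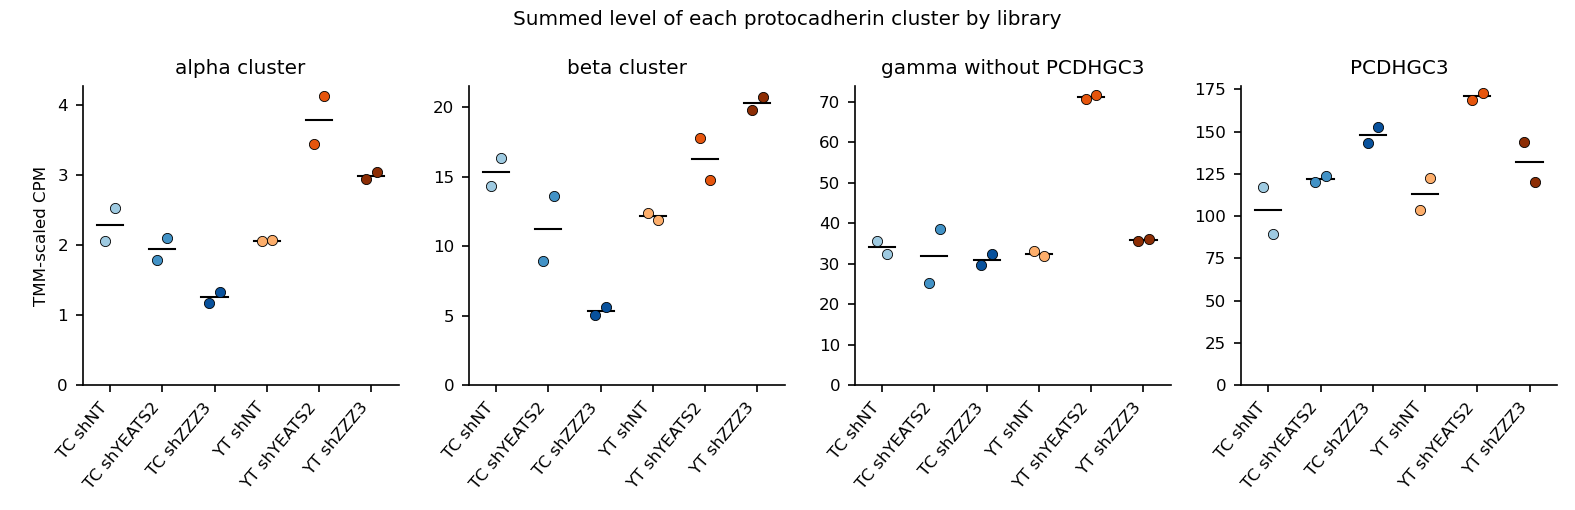
Summed TMM-scaled CPM (vertical axes, from 0) of the alpha, beta and gamma clusters and of PCDHGC3 alone in each of the 6 groups (horizontal axes); points are the 2 libraries of a group and the line is their mean. Beta is lowest in TC shZZZ3, at 5.07 and 5.61 CPM, and gamma without PCDHGC3 is highest in YT shYEATS2, at 70.8 and 71.5 CPM.

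PCDHB13 (ENSG00000187372, chr5:141213919-141218979) had 2.67 and 2.63 CPM in TC shNT and 0.487 and 0.694 CPM in TC shZZZ3. The groups did not overlap, and the log2 fold change was -2.03 ± 0.30 (SE; edgeR adjusted p = 0.00642). PCDHB12 (ENSG00000120328, chr5:141208697-141212571) went from 0.877 and 1.72 to 0.122 and 0.267 CPM, a log2 fold change of -2.31 ± 0.47 (edgeR adjusted p = 0.0349), on 3 and 5 counts in the knock-down libraries. PCDHB14 (ENSG00000120327, chr5:141223343-141227759) went from 2.36 and 2.20 to 0.730 and 0.267 CPM and PCDHB15 (ENSG00000113248, chr5:141245395-141249365) from 1.68 and 2.15 to 0.487 and 0.481 CPM. Their log2 fold changes were -1.97 ± 0.42 and -1.80 ± 0.35 (edgeR adjusted p of 0.0445 and 0.0258). These are beta-class adhesion proteins without the shared cytoplasmic tail that alpha and gamma proteins carry. For each of the 4 genes both knock-down libraries lay below both controls.

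Other beta genes were also at lower values in TC shZZZ3 without passing. PCDHB2 had 4 and 8 counts in TC shNT and 0 and 1 in TC shZZZ3, which is 1.90-fold lower when the low pair is set at 3 counts per library. A fold set in this way leaves out the error of the counts and is no lower limit. PCDHB8 had 0.763 and 0.430 CPM against 0.122 and 0.214 (log2 fold change -1.46, edgeR adjusted p = 0.127). PCDHB5, the highest beta gene per kilobase, had 3.70 and 3.44 CPM against 1.87 and 1.98 (log2 fold change -0.87, edgeR adjusted p = 0.388). The single pseudogene of the cluster that passed the count filter, PCDHB18P, had a log2 fold change of -1.93 that also did not pass. The alpha sum was 2.06 and 2.53 CPM in TC shNT and 1.18 and 1.34 CPM in TC shZZZ3, a ratio of 0.547, with PCDHA3 at a log2 fold change of -1.53 (edgeR adjusted p = 0.259). Of 16 gamma genes 8 had positive log2 fold changes, among them PCDHGC3, with 117 and 89.5 CPM against 144 and 152 CPM (0.52, edgeR adjusted p = 0.276). Between 5.16% and 34.5% of the 75-base windows of a tested beta transcript also occur in another protocadherin transcript, and PCDHB13 stood at 18.5%.

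The calls in TC shZZZ3 rested on few counts and on the number of libraries. Without either TC shZZZ3 library none of the 4 genes passed, and without TC shNT replicate 1 or 2 there were 2 and 1 calls. Leaving out YT shNT replicate 1 or 2 left 2 calls each, and YT shYEATS2 replicate 1 or 2 left 1 each, through the shared estimate of spread. Over all 12 omissions the log2 fold change of PCDHB13 stayed between -2.25 and -1.80 and that of PCDHB14 between -2.73 and -1.53. Fitted on the 4 libraries of the contrast alone, 1 call was left, and with library totals in place of TMM scaling 2 were left. DESeq2 called all 4, with an adjusted p of 8.68e-05 for PCDHB13.

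**Figure D2:**
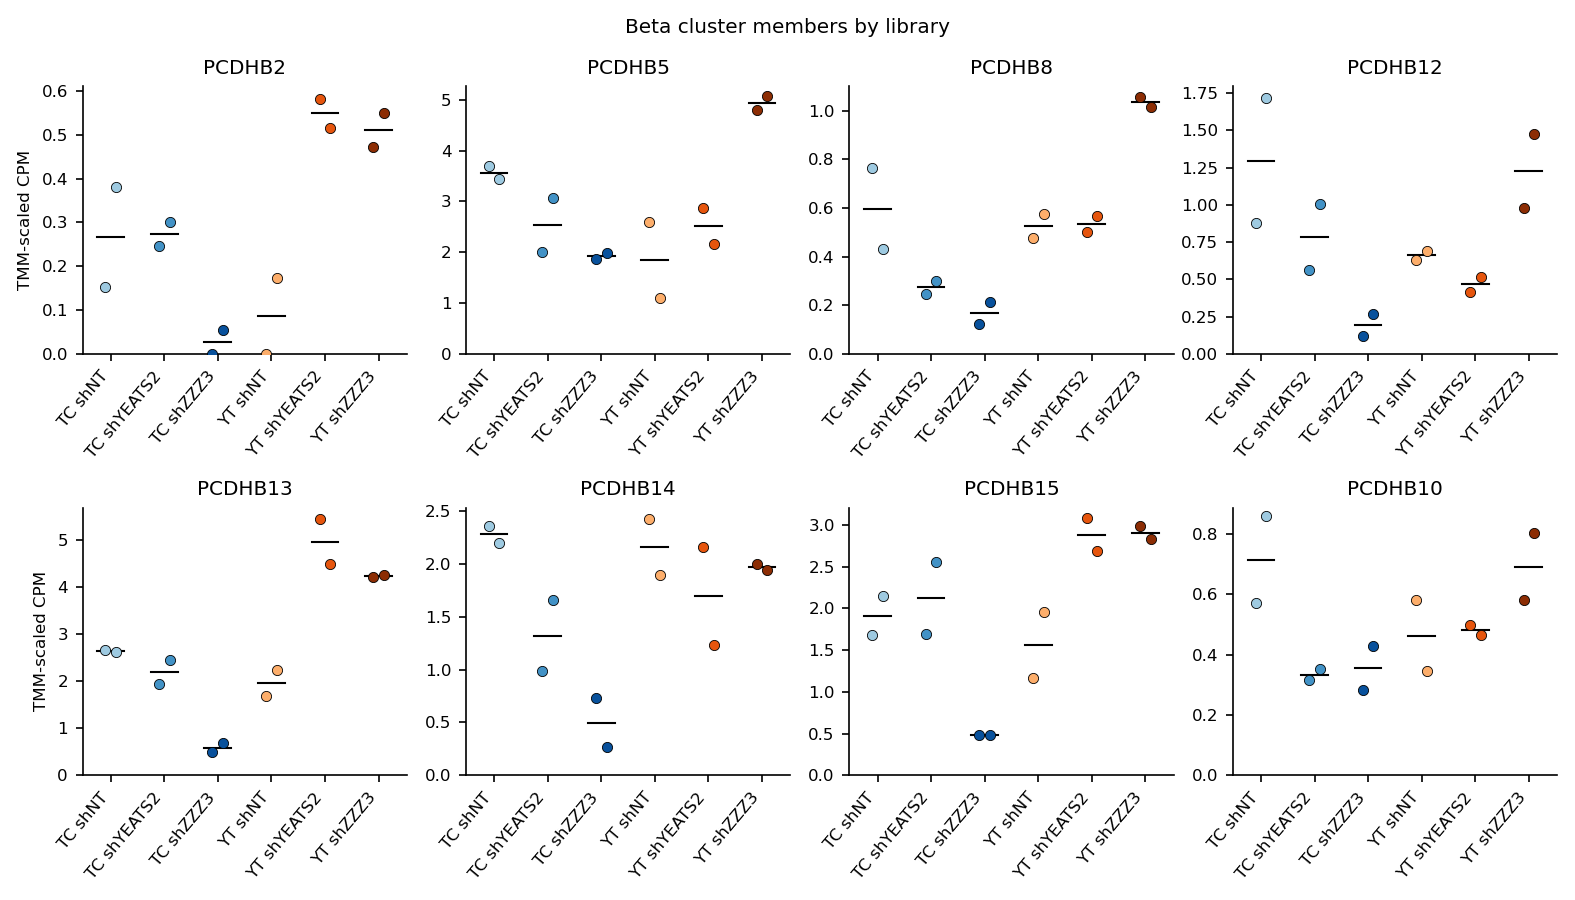
TMM-scaled CPM (vertical axes, from 0) of the 7 beta genes called in at least 1 contrast, and of PCDHB10, which was called in none, in the 6 groups; points are libraries and lines are means of 2. PCDHB12 to PCDHB15 are lowest in TC shZZZ3, and PCDHB5 and PCDHB8 are highest in YT shZZZ3.

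In YT cells the ZZZ3 hairpin went with higher, not lower, beta levels. The beta sum was 12.4 and 11.9 CPM in YT shNT and 19.8 and 20.7 CPM in YT shZZZ3, a mean of 12.1 ± 0.354 against 20.3 ± 0.657 CPM (SD, n = 2 each) and a ratio of 1.67. Of the 32 tested members 2 (6.25%) passed and rose. Of all genes 10% were called in either direction, 4.4% higher and 5.62% lower, so the count of members called is near the background. PCDHB5 (ENSG00000113209, chr5:141135206-141138615) went from 2.59 and 1.09 to 4.80 and 5.07 CPM (log2 fold change 1.37 ± 0.36, edgeR adjusted p = 0.0326). PCDHB13 went from 1.69 and 2.24 to 4.22 and 4.27 CPM (log2 fold change 1.08 ± 0.27, edgeR adjusted p = 0.0267). In both genes the knock-down libraries lay above both controls, as 9 of 13 tested beta genes and 16 of 32 members did, against 25.6% of all genes. Below both controls were 4 of 32 members, against 27.1% of all genes. The endothelial marker sum was also higher in YT shZZZ3, at 153 CPM in both libraries against 49.4 and 51.8 CPM. The mesenchymal sum was lower, at 6211 and 6306 CPM against 10532 and 12845 CPM. That sum followed FN1, which went from 8330 and 10533 to 2576 and 3519 CPM. Of the 9 mesenchymal genes 3 were called higher and 1 lower, with a median of 0.44 on the log2 scale. Both YT shZZZ3 libraries also lay above both controls in the neuronal and blood sums and below them in the adipocyte sum. The part of these lists in the beta values was not tested. Both calls were lost without YT shNT replicate 2 or either YT shZZZ3 library and in a fit limited to the YT shNT and YT shZZZ3 libraries, and 1 was lost without YT shNT replicate 1, either TC shZZZ3 library or either YT shYEATS2 library.

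For 6 of the 13 tested beta genes the response to the ZZZ3 hairpin differed between the lines by a test of the difference itself. The interaction, the log2 fold change in YT minus that in TC, was higher in YT for all 6, which were the members that passed, beside 4.32% of all genes called in either direction, 1.46% called higher and 2.86% called lower. It was 3.11 ± 0.40 for PCDHB13 (edgeR adjusted p = 0.00200), which passed in every alternative, including all 12 omissions of a library. It was 3.12 for PCDHB12, 2.67 for PCDHB15, 2.33 for PCDHB8 and 2.24 for PCDHB5. PCDHB8 had 0.475 and 0.575 CPM in YT shNT and 1.05 and 1.01 CPM in YT shZZZ3, and in TC its libraries moved the other way as given above. PCDHB12 had 0.633 and 0.690 CPM in YT shNT and 0.982 and 1.48 CPM in YT shZZZ3. PCDHB15 had 1.16 and 1.95 CPM against 2.98 and 2.83 CPM. PCDHB2 also passed, with 0 and 3 counts in YT shNT, 13 and 13 in YT shZZZ3 and 0 and 1 in TC shZZZ3, so that its fitted interaction of 3.43 depends on the prior count and is no measure of size. Without TC shZZZ3 replicate 1 or 2 only 1 of the 6 interactions passed, and without either YT shNT or either YT shYEATS2 library 3 passed.

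The gamma cluster held most of the member calls in YT shYEATS2. Without PCDHGC3 its members summed to 33.0 and 32.0 CPM in YT shNT and to 70.8 and 71.5 CPM in YT shYEATS2, a mean of 32.5 ± 0.717 against 71.2 ± 0.551 CPM (SD, n = 2 each) and a ratio of 2.19. The alpha sum also rose, from 2.06 and 2.07 to 3.45 and 4.13 CPM, a ratio of 1.84. The beta sum went from 12.4 and 11.9 to 17.8 and 14.8 CPM, a ratio of 1.34. Over the 3 clusters 10 members rose and 1 fell, that is 11 of 32, beside 20.7% of all genes called, 9.61% called higher and 11.1% called lower. Those that rose were 7 gamma genes, PCDHA4, PCDHB2 and PCDHB13, and the gene that fell was PCDHGB5. The gamma median was 0.89 on the log2 scale, the beta median 0.00 and the alpha median 0.92 over 3 tested genes, beside -0.01 over all genes tested. Above both controls were 19 of 32 members and below both 4 of 32, against 36.4% and 37.8% of all genes. The neuronal marker sum was 34.2 and 33.6 CPM against 15.4 and 14.3 CPM in YT shNT, the blood sum was 4.33 and 4.69 against 1.06 and 1.09 CPM, and the adipocyte and endothelial sums lay below both controls. The part of these lists in the gamma values was not tested. DESeq2 called 9 of the 11, with PCDHA4 and PCDHB2 at adjusted p of 0.0519 and 0.0935.

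The direction changed along the gamma cluster. From PCDHGA1 to PCDHGA7, the 10 tested members nearest the beta cluster all had positive log2 fold changes, of 0.67 to 2.14. PCDHGB4 was next at 0.15, then PCDHGB5 at -1.80 and PCDHGA10 at -0.83, and the C-type genes that follow were at 0.60, 1.76 and 0.73. The differences between neighbours along the cluster were not tested.

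**Figure D3:**
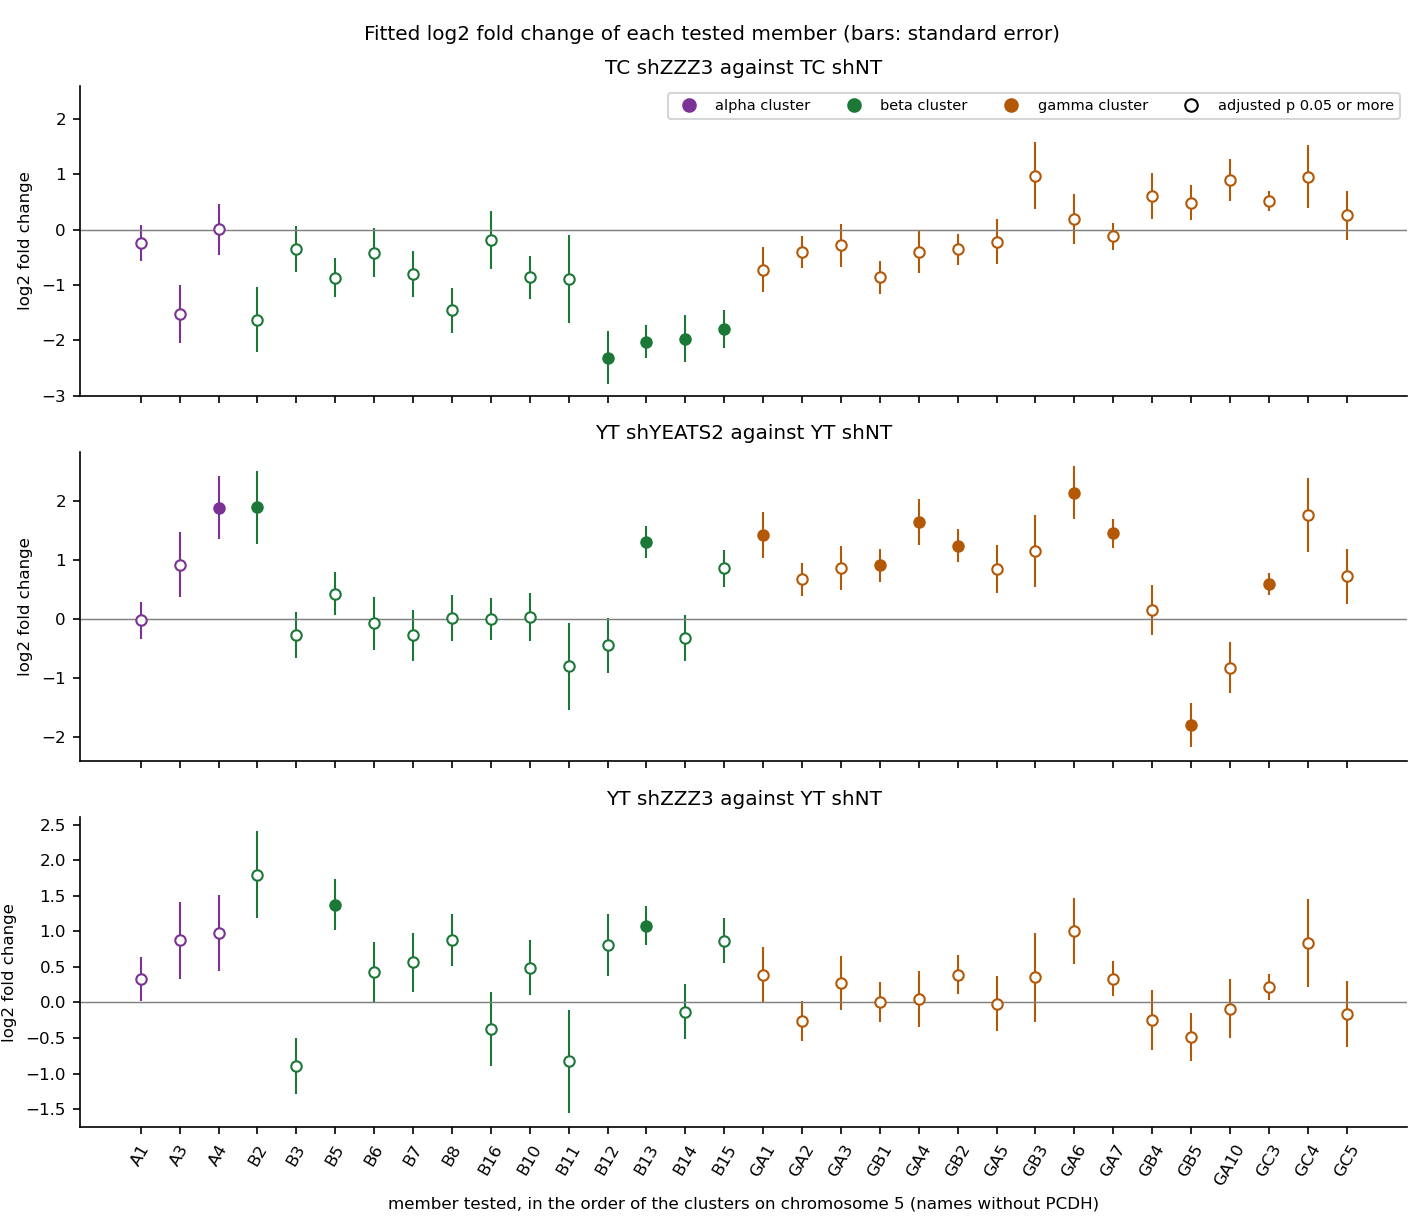
Fitted log2 fold change (vertical axes) of the 32 tested members in the order of the clusters (horizontal axis) in TC shZZZ3, YT shYEATS2 and YT shZZZ3, each against the non-targeting hairpin of its line; bars are standard errors and filled points have an adjusted p under 0.05. PCDHB12 to PCDHB15 are called lower in TC shZZZ3, and in YT shYEATS2 PCDHGA1 to PCDHGA7 are positive and PCDHGB5 is at -1.80.

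PCDHGA7 (ENSG00000253537, chr5:141382739-141512975), the second gamma gene by level, had 9.65 and 11.6 CPM in YT shNT and 28.3 and 30.1 CPM in YT shYEATS2. Both knock-down libraries lay far above both controls, with a fold of 2.74 and a log2 fold change of 1.45 ± 0.25 (edgeR adjusted p = 0.00215) that passed in all 12 omissions of a library. PCDHGA6 went from 0.264 and 0.287 to 1.5 and 1.55 CPM, the largest fitted fold change of the called members at 2.14 ± 0.46 (edgeR adjusted p = 0.00717), from 5 counts in each control library. PCDHGA4 (ENSG00000262576, chr5:141355021-141512975) went from 1.21 and 1.03 to 3.91 and 3.51 CPM, and PCDHGA1 (ENSG00000204956, chr5:141330514-141512975) from 1.95 and 2.30 to 5.99 and 5.78 CPM. Their log2 fold changes were 1.65 ± 0.38 and 1.43 ± 0.39 (edgeR adjusted p of 0.0113 and 0.0237). These A-type isoforms are gamma proteins that share a cytoplasmic tail and differ in their extracellular cadherin repeats.

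The B-type isoforms of the gamma cluster went both ways. PCDHGB2 rose from 3.85 and 3.45 to 8.07 and 9.44 CPM (log2 fold change 1.24 ± 0.28, edgeR adjusted p = 0.00965) and PCDHGB1 from 2.69 and 2.13 to 4.83 and 4.38 CPM (0.91 ± 0.28, edgeR adjusted p = 0.0420). PCDHGB5 (ENSG00000276547, chr5:141397947-141512975) fell from 2.06 and 1.61 to 0.374 and 0.567 CPM (log2 fold change -1.80 ± 0.37, edgeR adjusted p = 0.00644). PCDHGA10, its nearest tested neighbour on the far side, had 0.422 and 0.287 CPM against 0.125 and 0.206 CPM and did not pass (edgeR adjusted p = 0.199). In neither gene did the groups overlap. Between 29.6% and 69.3% of the 75-base windows of a tested gamma transcript occur in another protocadherin transcript, so calls of near neighbours in this cluster may share reads.

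Among the C-type genes, PCDHGC3 (ENSG00000240184, chr5:141475947-141512977) rose from 103 and 122 to 169 and 173 CPM in YT shYEATS2, a log2 fold change of 0.60 ± 0.18 (edgeR adjusted p = 0.0399). Its share of the gamma counts went from 75.8% and 79.3% to 70.5% and 70.7%. PCDHGC4 is required for the survival of some interneurons. It had 1 and 2 counts in YT shNT and 8 and 13 in YT shYEATS2, and did not pass (edgeR adjusted p = 0.0680). Its fold was 3.03 when the control pair was set at 3 counts per library, which is no lower limit. PCDHGC5 had 0.211 and 0.345 CPM against 0.374 and 0.671 CPM (log2 fold change 0.73, edgeR adjusted p = 0.283). In the same contrast the alpha gene PCDHA4 (ENSG00000204967, chr5:140807037-141012347) rose from 0.106 and 0.287 to 0.749 and 1.19 CPM (log2 fold change 1.89 ± 0.53, edgeR adjusted p = 0.0283). PCDHA1, which ranged from 0.427 to 1.27 CPM over all libraries, had 1.0 and 0.920 CPM against 0.915 and 0.980 CPM, a log2 fold change of -0.02. PCDHB13 rose to 5.45 and 4.49 CPM (log2 fold change 1.30 ± 0.27, edgeR adjusted p = 0.00607). PCDHB2 had 14 and 10 counts, 3.32-fold above its control pair set at 3 counts per library, which is no lower limit either.

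Several of these calls were lost with fewer libraries. Without YT shNT replicate 1 only PCDHGA7 passed, without YT shNT replicate 2 there were 4 calls, without YT shYEATS2 replicate 1 there were 3 and without YT shYEATS2 replicate 2 there were 5. No call changed sign. PCDHGC3 was at an adjusted p of 0.0503 when no filter on low counts was applied.

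**Figure D4:**
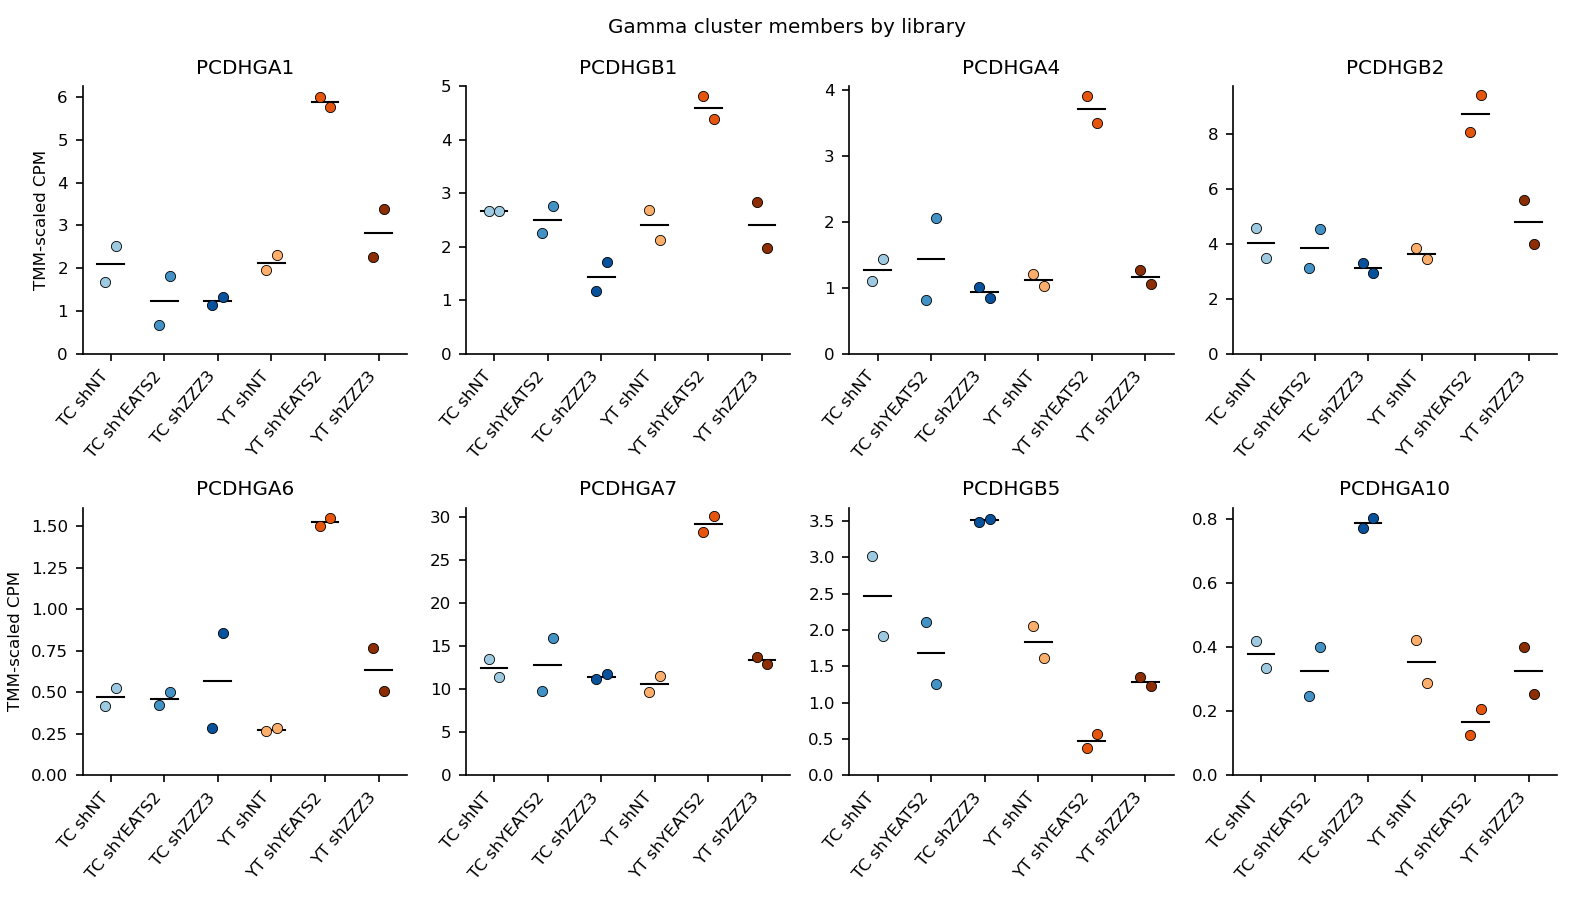
TMM-scaled CPM (vertical axes, from 0) of 7 gamma genes called in YT shYEATS2, and of PCDHGA10, which was not called, in the 6 groups; points are libraries and lines are means of 2. The first 6 panels are highest in YT shYEATS2, and PCDHGB5 and PCDHGA10 are lowest there.

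The same hairpin in TC cells gave 0 member calls, beside 0.0434% of all genes called, that is 8 genes, with 0.0326% called higher and 0.0109% lower. At an unadjusted p under 0.05 there were 4 members, all lower, and 927 genes, and DESeq2 also called 0 members. PCDHGA7 had 13.5 and 11.4 CPM in TC shNT and 9.76 and 16 CPM in TC shYEATS2. PCDHGA1 had 1.68 and 2.53 CPM against 0.669 and 1.81 CPM. Both pairs overlapped, and 10 of 32 members lay below both controls and 2 above both, against 8.84% and 11.4% of all genes. The beta sum was 8.91 and 13.6 CPM, below both TC shNT libraries but with a spread of 3.32 CPM (SD, n = 2). TC shYEATS2 replicate 2 stood apart in endothelial markers, with a sum of 269 CPM against 58.9 CPM in replicate 1. The interaction of the YEATS2 hairpin passed for 3 of 32 members (9.38%), all higher in YT. Of all genes 9.37% passed in either direction, 3.53% higher and 5.84% lower, so the count in either direction is at the background. The interaction was 2.19 for PCDHGA1, 1.57 for PCDHB13 and 1.41 for PCDHGA7 on the log2 scale (edgeR adjusted p of 0.0322, 0.0238 and 0.0273). None of the 3 passed without TC shYEATS2 replicate 1, either YT shNT library or either YT shYEATS2 library, 1 passed without TC shNT replicate 1 and 5 members did without TC shYEATS2 replicate 2.

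Between the lines with the non-targeting hairpin no member passed the edgeR test, beside 9.23% of all genes, 5.58% as higher and 3.65% as lower, with 3 members at an unadjusted p under 0.05 against 4408 genes. DESeq2 called 0 members, and 1 passed without TC shNT replicate 2. Above both TC libraries were 4 of 32 members and below both 6, against 26% and 25.3% of all genes. PCDHB3 had the smallest adjusted p, with 0.153 and 0.191 CPM in TC shNT and 0.686 and 0.402 CPM in YT shNT (log2 fold change 1.30, edgeR adjusted p = 0.0708). It was named after its values were seen. The methods state that lines containing CAMTA1 were collected below confluence and other lines after confluence. Whether this covers TAZ-CAMTA1 lines or these hairpin libraries is not stated. If it does, the fusion and the cell density cannot be told apart. The contrasts of a line share their shNT libraries, so a high or low control library moves every contrast of that line. In YT shZZZ3 the gamma sum without PCDHGC3 was 35.7 and 36.1 CPM, above both controls by a ratio of 1.10, with a gamma median of 0.14 on the log2 scale.

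Genes beside the clusters also moved in YT cells. Of 15 tested neighbours, none of them a protocadherin, 12 rose in YT shYEATS2 and 6 in YT shZZZ3, where 9.61% and 4.4% of all genes were called higher. Their medians were 0.76 and 0.70 on the log2 scale. In TC cells their medians were -0.05 with shYEATS2 and 0.02 with shZZZ3. FCHSD1, an actin regulator, rose by 1.41, the histidyl-tRNA synthetase gene HARS by 0.89 and the splicing factor gene ZMAT2 by 0.76 in YT shYEATS2. Over 92 non-member genes tested within 5 Mb of the clusters, 26.1% were called higher and 9.78% lower in YT shYEATS2, with a median of 0.22, beside -0.17 over 740 genes on the rest of chromosome 5. In YT shZZZ3 the median of the 92 genes was 0.27, and in TC shZZZ3 it was -0.11. When each library's median deviation of the 50 non-member genes on each side was removed, an alternative chosen after seeing these values, 8 of the 11 calls in YT shYEATS2 were kept. PCDHGA7 stood at 1.24, PCDHGA6 at 1.96 and PCDHGB5 at -2.0, and PCDHB2, PCDHGB1 and PCDHGC3 no longer passed, at 1.76, 0.69 and 0.38 (edgeR adjusted p of 0.0656, 0.0865 and 0.0884). Both calls in YT shZZZ3 and all 4 in TC shZZZ3 were kept, with PCDHB13 at -2.05 in the latter.

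**Figure D5:**
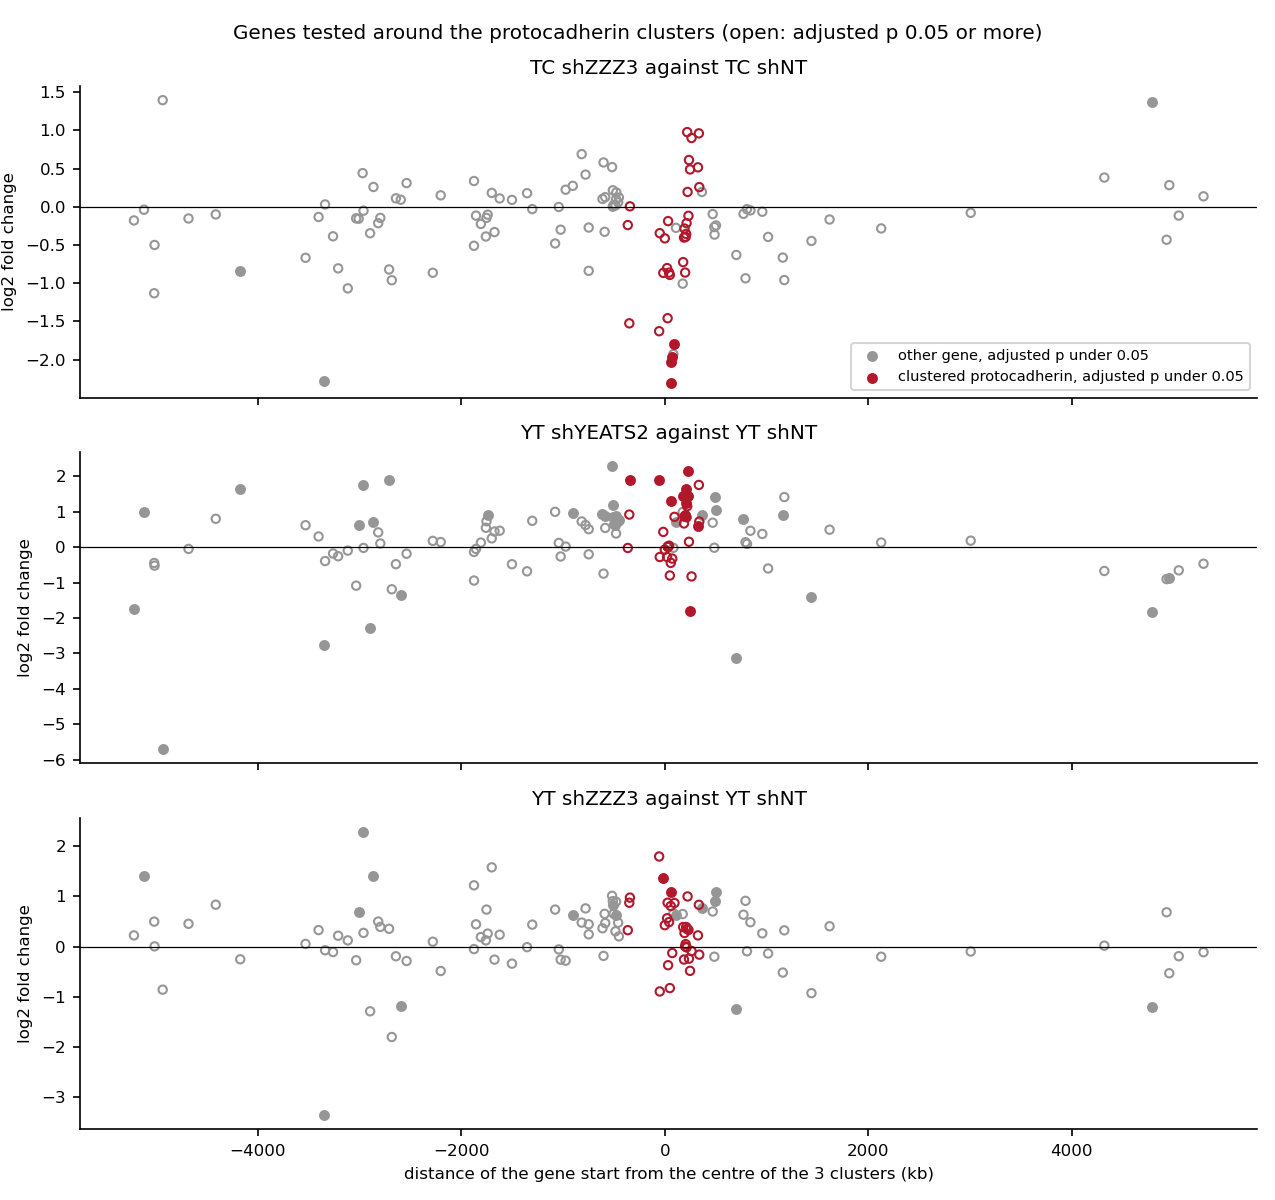
Fitted log2 fold change (vertical axes) of genes tested within 5 Mb of the clusters against the distance of their start from the centre of the clusters (horizontal axis, kb), in TC shZZZ3, YT shYEATS2 and YT shZZZ3, each against its shNT group; red marks clustered protocadherins, grey marks other genes and filled points have an adjusted p under 0.05. The 15 neighbours next to the clusters have medians of 0.76 and 0.70 in the YT panels and 0.02 in TC shZZZ3.

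Of 17 tested regulators of the clusters, 1 was called in each YT knock-down, a smaller share than the 20.7% and 10% of all genes called in YT shYEATS2 and YT shZZZ3. Their medians in TC shYEATS2, TC shZZZ3, YT shYEATS2 and YT shZZZ3 were -0.02, -0.07, -0.18 and 0.09 on the log2 scale. SMC3, a cohesin subunit, fell by 1.81 on the log2 scale in YT shYEATS2 (edgeR adjusted p = 0.00897), from 87.9 and 52.8 to 21.3 and 18.7 CPM. In the TC shNT libraries SMC3 was at 17.6 and 44.2 CPM. DNMT1, the maintenance DNA methyltransferase, rose by 0.87 in YT shZZZ3 (edgeR adjusted p = 0.0297). CTCF was at 61.0 to 86.8 CPM in all libraries and had log2 fold changes of -0.13 to 0.23 in the 4 knock-downs, none of which passed. SMCHD1, which silences the clusters, ranged from 24.5 to 83.9 CPM and had a log2 fold change of -1.24 in YT shYEATS2 that did not pass (edgeR adjusted p = 0.0924). Of 18 tested partners, 5 fell in YT shYEATS2 and 1 in YT shZZZ3, beside 11.1% and 5.62% of all genes called lower, so that the count in YT shZZZ3 is at the background. The Src-family kinase gene FYN fell by 0.83, NCKAP1 of the WAVE complex by 1.04 and WASF3 of the same complex by 0.64 in YT shYEATS2, and PTK2B, a focal adhesion kinase paralogue that binds protocadherin tails, fell by 1.28 in YT shZZZ3. Their medians were -0.39 and -0.27 in these contrasts and 0.03 and -0.04 in TC shYEATS2 and TC shZZZ3.

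The non-clustered protocadherins, single genes outside the 3 clusters, moved in both directions. Of 12 genes 5 were tested. PCDH1, which lies 3′ of the gamma cluster, fell by 3.13 in YT shYEATS2 and by 1.25 in YT shZZZ3 on the log2 scale, and PCDH18 rose by 2.11 and 1.49. PCDH19 and PCDH8 rose in TC shZZZ3, by 3.36 and 2.37, where the beta genes fell, and PCDH8 rose by 2.55 in YT shZZZ3. Of 5 tested neuronal markers, the neurofilament genes NEFL and NEFM were called higher with TC shZZZ3 but lower with YT shYEATS2. The synaptic genes SYP, SNAP25 and SYN1 rose in YT shYEATS2, and SYP and SYN1 rose in YT shZZZ3. Their part in the protocadherin values was not tested.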

How the data were processed

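RNA was measured by stranded, poly(A)-selected, paired-end sequencing. The authors deposited raw counts per gene for hg38, which the study's methods tie to bcbio-nextgen with HISAT2 and Ensembl annotation; Salmon is also described, and which of them made the deposited counts is not given in the sources used here. Groups came from the sample titles. The 18415 genes that averaged 5 or more counts across 12 libraries were fitted in edgeR 4.0.16 (TMM scaling, robust quasi-likelihood test, two-sided, prior count 2, all 6 groups, R 4.3.3). P-values were adjusted by Benjamini-Hochberg over all genes tested, and genes were called at an adjusted p under 0.05. Fold changes are log2 with a standard error, and CPM are TMM-scaled. The common biological coefficient of variation was 0.205, but the spread between the 2 libraries was unequal among groups. Over 13258 genes of higher counts, its chi-square per degree of freedom was 119 in TC shNT and 109 in YT shZZZ3. In TC shYEATS2, TC shZZZ3, YT shNT and YT shYEATS2 it was 59.9, 11.8, 13.1 and 19.8. DESeq2 1.42.0, other scalings, filters and blocks, a GC offset, a regional offset and omission of each library were alternatives. The fit was tested on simulated data.

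The members and gene lists were chosen with earlier results of these data known. Values per library are given for members called in at least 1 of 7 contrasts (up to 12 per cluster), for the highest member per kilobase and for the C-type genes, and up to 3 called genes are named per list. Symbols and coordinates follow GENCODE 44. The neighbour list held HARS under 2 names, counted once. Standard errors come from the edgeR fit and include the spread between libraries, and SDs are those of the 2 libraries of a group. Folds against a pair set at 3 counts per library carry no error.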

Additional observations from a re-analysis of the deposited data

Results flagged for a closer look

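Interactions, the log2 fold change in YT minus that in TC, that passed the edgeR test for a member are listed here because the same hairpin went with different changes in the 2 lines. For the ZZZ3 hairpin they were 3.11 for PCDHB13, 3.12 for PCDHB12, 2.67 for PCDHB15, 2.33 for PCDHB8 and 2.24 for PCDHB5. PCDHB2 stood at 3.43, on 0 and 1 counts in TC shZZZ3 and 0 and 3 in YT shNT, so that value depends on the prior count. For the YEATS2 hairpin they were 2.19 for PCDHGA1, 1.57 for PCDHB13 and 1.41 for PCDHGA7. The share of members that passed in either direction for that hairpin was at that of all genes, as given above. In all 6 genes listed for the ZZZ3 hairpin the TC shZZZ3 libraries were lower and the YT shZZZ3 libraries higher than both of their controls.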

How the results depend on the processing

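Each call of a member was refitted under 9 alternatives and with each of 12 libraries left out. None of the 26 pairs of member and contrast called changed sign, 14 passed under all 9 alternatives and 2 with every library left out in turn, PCDHGA7 in YT shYEATS2 and PCDHB13 for the ZZZ3 interaction. With 2 libraries a group and members of few counts, the calls depend on the shared estimate of spread.

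The replicate numbers were not taken as a pairing, since the deviations of same-numbered libraries did not correlate positively in every pair of groups. Over 15 pairs r ranged from -0.469 for TC shNT with YT shNT to 0.913 for TC shNT with YT shZZZ3. The groups of the highest r also had the largest chi-square between their libraries, at 119 and 109. Of 6 groups 5 correlated best with their own number, YT shNT being the exception. Whether some numbers mark a shared step was not tested. With the replicate block the members called were 4 in TC shZZZ3, 12 in YT shYEATS2, 2 in YT shZZZ3 and 3 and 6 for the YEATS2 and ZZZ3 interactions, and all genes called were 28 in TC shYEATS2.

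For all genes, the calls in TC shYEATS2, TC shZZZ3 and the ZZZ3 interaction were 115, 517 and 1227 with DESeq2. Without a filter on low counts they were 213, 744 and 1549, with 2611 for the YEATS2 interaction and 2710 for YT shNT against TC shNT. With the GC offset they were 60, 666 and 1953, with 3745 in YT shZZZ3, 3536 for the YEATS2 interaction and 3350 between the shNT groups. With the replicate block and the GC offset together they were 120, 950 and 2498, with 6481 in YT shYEATS2, 4476 in YT shZZZ3, 4317 for the YEATS2 interaction and 4078 between the shNT groups. The regional offset gave 18 in TC shYEATS2. Fits on the libraries of a contrast alone gave 4 in TC shYEATS2, 157 in TC shZZZ3, 8719 in YT shYEATS2 and 941 between the shNT groups.

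For members, the YEATS2 interaction passed for 6 without the filter, with the GC offset and with block and GC offset together. Between the shNT groups 1 passed with the GC offset, with block and GC offset together and with the regional offset. In TC shZZZ3 there were 2 with library totals and 1 on the contrast's own libraries, and in YT shZZZ3 4 with block and GC offset together and 0 on the contrast's own libraries. The cause of these shifts was not tested.

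With a library left out, all genes called ranged over 0 to 77 in TC shYEATS2, 50 to 495 in TC shZZZ3, 1527 to 5059 in YT shYEATS2, 514 to 2580 in YT shZZZ3, 787 to 3023 and 204 to 1146 for the YEATS2 and ZZZ3 interactions and 486 to 3108 between the shNT groups. Members called ranged over 0 to 4 in TC shZZZ3, 1 to 11 in YT shYEATS2, 0 to 2 in YT shZZZ3, 0 to 5 and 1 to 5 for the interactions and 0 to 1 between the shNT groups.

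The ratio of the gamma sum without PCDHGC3 in YT shYEATS2 was 2.12 with library totals. The mean number of members detected in TC shNT, TC shYEATS2, TC shZZZ3, YT shNT, YT shYEATS2 and YT shZZZ3 was 43, 46.5, 43, 45.5, 47.5 and 48 at 1 count or more and 22.5, 17.5, 15.5, 17.5, 25 and 25 at 10 or more. Over the full exon length PCDHA1 came to 0.148 and PCDHGC3 to 24.2 CPM per kilobase.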
